A study of Mus musculus with 3 samples.

Results

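The transcripts described here are 36 genes of immune cells, read as a measure of the immune cell content of mouse granulosa cell preparations around ovulation. The members were listed by name in 5 classes: 7 genes shared by most leukocytes, 14 of monocytes and macrophages, 4 of MHC class II antigen presentation, 3 of lymphocytes and 8 of neutrophils. All 36 were matched to RefSeq isoforms among the 24225 genes measured. Granulosa cells, which line the follicle and enclose the oocyte, came from ovaries of wild-type C57BL/6 females aged postnatal day 21 to 28. All animals had received 4 IU of eCG, a gonadotropin that drives follicle growth. Ovulation was triggered with 5 IU of hCG, which acts on the receptor of luteinizing hormone, and follicles were punctured before hCG (0 h) and 4 h and 12 h after it. Each time is represented by a single library from 3 mice, so no test was possible and each difference below is one between 2 libraries.

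Ovulation has features of inflammation, and leukocytes of the ovarian stroma and vessels are known to gather around and enter the rupturing follicle and the young corpus luteum. Macrophages take up dead cells and debris, make complement C1q and present antigen on MHC class II, while neutrophils carry granules of antimicrobial proteins and arrive early at sites of inflammation. Puncture releases granulosa cells together with blood and fragments of the surrounding tissue, so the preparation can hold immune cells from several places. Some of the members, such as Cd68, Cd14, Cd52 and Lcn2, can also be made by cells that are not leukocytes. In bulk RNA, fewer cells of a type and less RNA per cell cannot be told apart, and which cells made each transcript was not tested.

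Levels are FPKM, which divide fragment numbers by transcript length and library depth, summed over a gene's isoforms. Low values placed the depth between 11600000 and 13300000 fragments per library, so that 1 fragment on 1 kb of transcript is worth 0.0752 to 0.0862 FPKM. Intervals in parentheses are the deposited ones, which describe the estimate within 1 library and not the spread between mice. All 8 granulosa markers were detected in every library. The inhibin and activin subunits Inha (6986, 7163 and 3742 FPKM at 0, 4 and 12 h) and Inhba (699, 784 and 208), the activin binder Fst (597, 349.5 and 215.5) and the anti-Mullerian hormone Amh (252, 351 and 406) were the highest. At 4 h, 3 of the 8 were lower by the 2-fold rule given below: the hormone receptor Fshr (133, 15.5 and 32.1), the aromatase Cyp19a1 (198, 30.02 and 104.5) and the transcription factor Foxl2 (149, 44.3 and 102). Beside these, the 36 immune genes together summed to 145.8, 272 and 239.5 FPKM. Relative to the sum over protein-coding genes, the members' sum at 4 h was 1.6 times that at 0 h, and at 12 h 1.71 times. Immune transcripts were present in every library, below the level of Inha alone.

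A gene is called higher or lower here where the fold on the FPKM + 1 scale reached 2 and 1 of the 2 libraries held at least 1 FPKM. This is a rule of size, and the scale understates the change of low genes. From 0 to 4 h, 29 of the 36 members reached 1 FPKM, and 10 of them were higher and 0 lower. Over all genes 10.2% were higher and 7.03% lower. The log2 fold had a median of 0.83 over the 29, of 0.74 without the 2 genes listed at 0 before hCG, and of -0.01 over all genes. The 10 were S100a8, S100a9, Camp and Lcn2 of the neutrophil class, Cd68, Cd14, C1qa and C1qc of the macrophage class, and Cd52 and Cd53 of the shared class. The fold was positive in 27 of the 29, the exceptions being Csf1r and H2-Eb1, and in 49.5% of all genes tested. Of the 29 members, 23 reached 1 FPKM at 0 h. Cd53, Itgam, Spi1, S100a9, Camp and Ltf passed the floor only through the 4 h library. Their positive sign followed from that floor, which also bears on the median and on the calls of Cd53, S100a9 and Camp. Deposited intervals of the 2 libraries lay apart in 11 of the 29 members, 7 of them among the 10, and in 39.7% of all genes, so by that measure the members' share was near the background. The 7 include S100a9 and Camp, whose 0 h bounds were both 0, so that any lower bound above 0 at 4 h lay apart.

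With libraries rescaled to an equal FPKM sum, which shifted the median of all genes by -0.28, 8 members were higher and 0 lower at 4 h, and the fold was positive in 21 of 28. On that scale 7.6% of all genes were higher and 13.1% lower, so the split over all genes turned and that of the members did not. The 2 members no longer higher were C1qc (log2 fold 0.90) and Lcn2 (0.78).

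**Figure D1:**
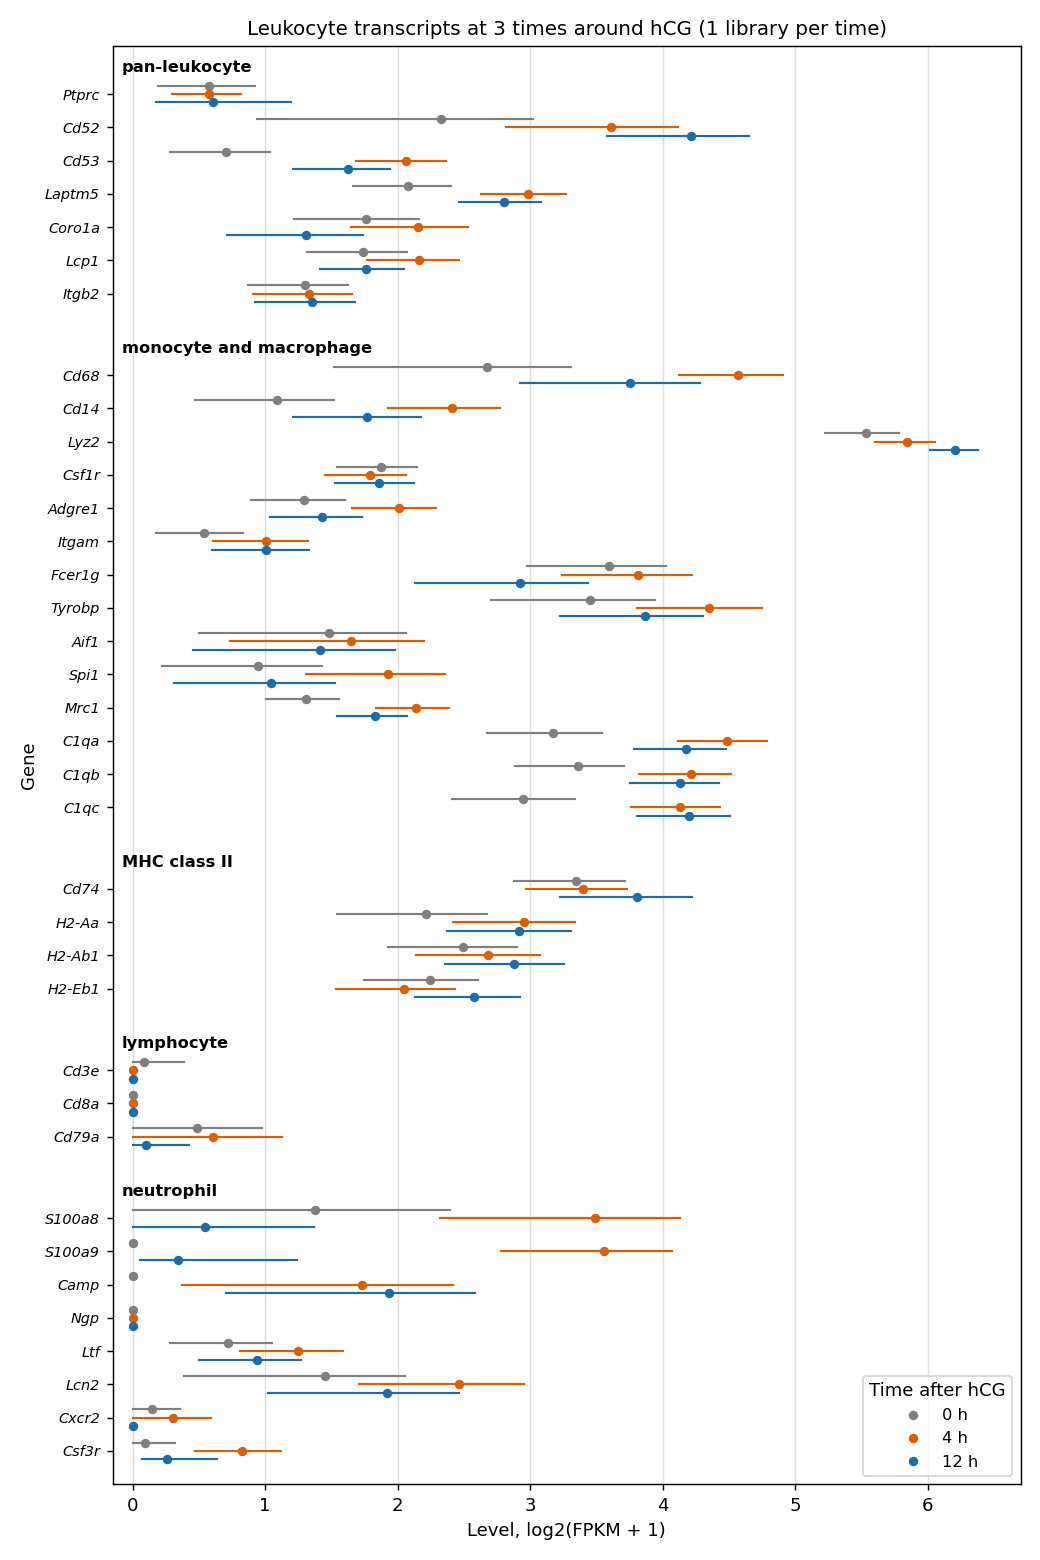
Levels of the 36 members as log2(FPKM + 1) on the x axis, by gene and class on the y axis, with 1 point per library (grey 0 h, orange 4 h, blue 12 h) and bars for the deposited interval. Lyz2 lies far to the right of the other members, the S100a8 and S100a9 points of the 4 h library stand apart from those of the other 2 libraries, and the lymphocyte genes lie at or near 0.

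The neutrophil class differed most between libraries. Its 8 genes summed to 4.14 FPKM (1.96 to 7.19) at 0 h, 30.3 (21.7 to 38.9) at 4 h and 7.44 (4.55 to 10.7) at 12 h, or 7.31 times the 0 h sum at 4 h and 1.8 times at 12 h. Relative to the protein-coding sum the 4 h value was 6.26 times that at 0 h. The interval at 4 h lay apart from both others. At 0 h, 3 of the 8 genes were listed at 0 with bounds of 0, so they add no width to the interval of that sum. S100a8 and S100a9 held 21.0 of the 30.3 FPKM at 4 h, 1.59 of the 4.14 at 0 h and 0.728 of the 7.44 at 12 h.

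S100a8 and S100a9 encode the 2 subunits of calprotectin, a calcium-binding and metal-sequestering protein that is very abundant in the neutrophil cytosol. They lie on mouse chromosome 3 (GRCm38), at chr3:90669071-90670034 and chr3:90692630-90695721, 22596 bases apart. S100a8 was at 1.59 FPKM (0 to 4.25) at 0 h, 10.2 (3.98 to 16.5) at 4 h and 0.463 (0 to 1.59) at 12 h. Its log2 fold was 2.12 from 0 to 4 h and -2.94 from 4 to 12 h. The 4 h library was the high one, although its interval touched that at 0 h. S100a9 was listed at 0, with bounds of 0, before hCG, at 10.8 FPKM (5.85 to 15.8) at 4 h and at 0.266 (0.0414 to 1.36) at 12 h, with a log2 fold of -3.22 from 4 to 12 h. Its 4 h interval did not overlap that at 12 h. Both are short transcripts read at low depth: read as counting error at 2 SD, the intervals at 4 h have the width of 10.7 fragments for S100a8 and 18.3 for S100a9.

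The granule genes of the class were lower than S100a8 and S100a9 at 4 h, and Ltf and Lcn2 among them were also highest at that time. Camp, the cathelicidin precursor of secondary granules, was listed at 0 at 0 h, at 2.32 FPKM (0.295 to 4.35) at 4 h and at 2.82 (0.632 to 5.01) at 12 h. It thus stood as high at 12 h as at 4 h, on intervals of the width of 5.25 and 6.65 fragments. Ngp, another granule protein of immature neutrophils, was listed at 0 in all 3 libraries. Ltf, lactoferrin, was at 0.646 FPKM (0.219 to 1.07), 1.38 (0.751 to 2.01) and 0.916 (0.418 to 1.41) at 0, 4 and 12 h, with overlapping intervals. Lcn2, an iron-siderophore binder also made by epithelia, was at 1.73 FPKM (0.307 to 3.15), 4.52 (2.27 to 6.77) and 2.78 (1.04 to 4.52), just past the rule at 4 h with a log2 fold of 1.01.

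The receptors that define the neutrophil surface stayed under 1 FPKM. Csf3r, the receptor of the growth factor G-CSF, was at 0.0662 FPKM (upper bound 0.251) at 0 h, 0.772 (0.388 to 1.18) at 4 h and 0.196 (0.0529 to 0.557) at 12 h, so that its 4 h interval lay above that at 0 h. Cxcr2, the chemokine receptor that guides neutrophils out of the blood, was at 0.105 FPKM (0 to 0.282), 0.236 (0 to 0.504) and 0. Both were highest at 4 h, where the interval had the width of 14.5 fragments for Csf3r and 3.09 for Cxcr2.

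A further 14 neutrophil genes outside the members were measured and none reached 1 FPKM in any library. They summed to 1.97 FPKM (0.933 to 3.76) at 0 h, 4.33 (2.75 to 6.48) at 4 h and 1.56 (0.833 to 3.02) at 12 h. The 4 with the highest levels were the protease Prtn3 (0.679, 0.867 and 0.557 FPKM), the cytokine Il1b (listed at 0, then 0.819 and 0.0756), the chitinase-like Chil3 (0.171, 0.748 and 0.192) and the formyl peptide receptor Fpr1 (0.738, 0.302 and 0.383). The first 3 were highest at 4 h and Fpr1 at 0 h. The intervals of Prtn3, Chil3 and Fpr1 overlapped in every comparison, and the 0 h bounds of Il1b were both 0. Among primary granule genes, Elane and Ctsg were listed at 0 throughout. Mpo was at 0.0324 FPKM at 0 h and listed at 0 later, while Prtn3 had the levels given above.

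Markers of vessels and blood were set beside the neutrophil class, since both can carry leukocytes. The 6 endothelial markers summed to 14.9 FPKM (12.2 to 17.7), 37.0 (32.8 to 41.2) and 14.3 (12.1 to 16.6) at 0, 4 and 12 h, and all 6 were highest at 4 h. The endothelial receptor Kdr was at 1.54, 7.92 and 1.24 FPKM. The 7 red blood cell markers, which include near-identical globin copies, were highest in sum at 0 h, at 1739, 1092 and 1111 FPKM. Among them the globin Hbb-bs, at 57.2, 149 and 11.3 FPKM, was called higher at 4 h and lower at 12 h, and its reads can be divided with those of Hbb-b1, at 1199, 647 and 734 FPKM. The part of these differences in the neutrophil values was not tested.

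**Figure D2:**
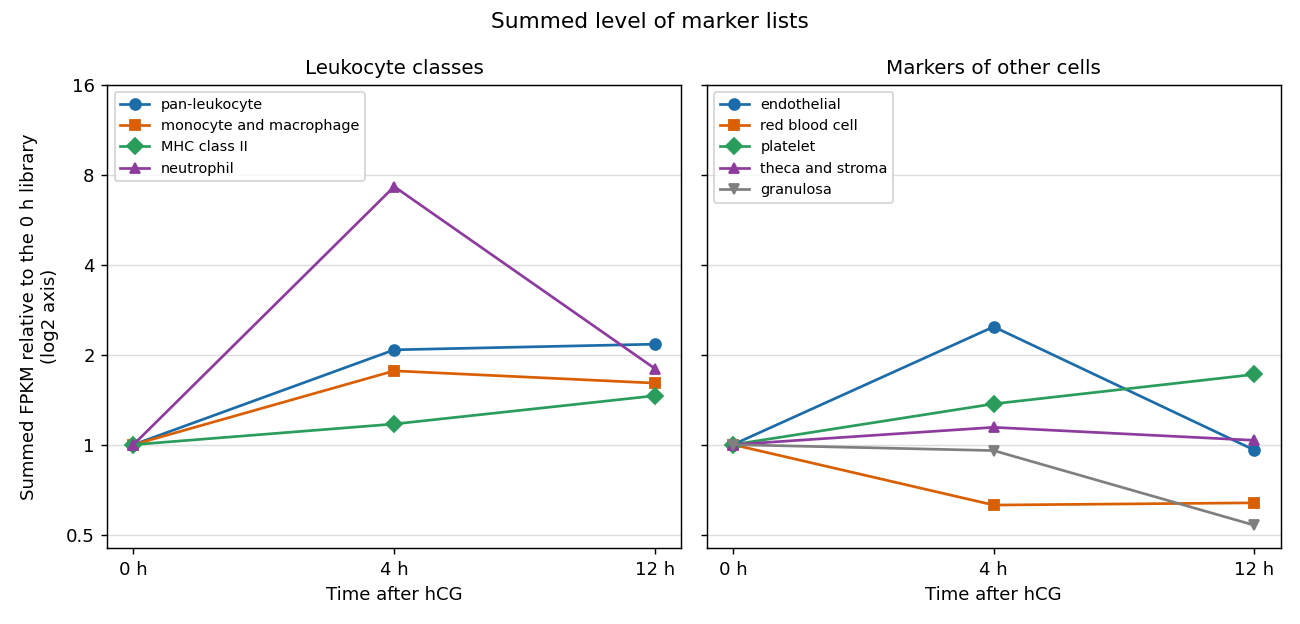
Summed FPKM of each marker list relative to the 0 h library (y axis, log2) at 0, 4 and 12 h (x axis), for 4 leukocyte classes on the left and 5 lists of other cells on the right; each point is 1 library and no error is drawn. The neutrophil sum stands at 7.31 at 4 h and 1.8 at 12 h, the endothelial sum at 2.48 and 0.959, and the red blood cell sum at 0.628 and 0.639.

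Among the 14 genes of monocytes and macrophages, 4 were called higher at 4 h than at 0 h and 0 lower, which leaves 10 not called. Of these 10, Spi1 (ratio 3.02), Mrc1 (2.30), Itgam (2.24) and Adgre1 (2.09) differed by more than 2-fold in FPKM. They fell short of the rule only on the FPKM + 1 scale. The class summed to 106 FPKM (93.1 to 118), 186 (171 to 202) and 169.6 (155 to 184) at 0, 4 and 12 h, or 1.77 and 1.61 times the 0 h sum. The intervals at both later times lay above that at 0 h. Lyz2, lysozyme M of macrophages and neutrophils, held the largest share of it and was the highest member in each library. It was at 45.2 FPKM (36.3 to 54.2), 56.5 (47.6 to 65.4) and 73.0 (63.8 to 82.1), above 84.0%, 86.1% and 91.2% of the genes with at least 1 FPKM. Its 12 h interval lay above that at 0 h, at a log2 fold of 0.68. Its near-identical neighbour Lyz1 was at no more than 0.869 FPKM, and how fragments were divided between the pair is not recorded in the labels. Without Lyz2 the class summed to 60.3, 129.9 and 96.6 FPKM, with the highest sum at 4 h. The endothelial markers, given above, were also highest at 4 h, and at 12 h their sum lay within its 0 h interval while the macrophage sum lay above its own. Their part in the macrophage values was not tested.

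The 3 complement genes of this class had similar levels. C1qa, C1qb and C1qc encode the 3 chains of C1q, the recognition molecule of the classical pathway, which in tissues comes mainly from macrophages. They lie side by side on chromosome 4, from C1qb at chr4:136880126-136886200 over C1qc at chr4:136889801-136892936 to C1qa at chr4:136895916-136898844. C1qa was at 8.02 FPKM (5.39 to 10.7) at 0 h, 21.4 (16.3 to 26.6) at 4 h and 17.0 (12.8 to 21.3) at 12 h. C1qb was at 9.25 FPKM (6.40 to 12.1), 17.5 (13.2 to 21.9) and 16.5 (12.5 to 20.5). C1qc was at 6.71 FPKM (4.31 to 9.11), 16.6 (12.6 to 20.6) and 17.4 (13.0 to 21.7). In each of the 3 genes both later libraries lay above the 0 h interval and did not differ from each other beyond their intervals. The log2 folds were 1.31, 0.85 and 1.19 from 0 to 4 h, and -0.31, -0.08 and 0.06 from 4 to 12 h. Their summed level was 2.32 times the 0 h level at 4 h and 2.12 times at 12 h.

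Cd68, a lysosomal membrane glycoprotein rich in macrophages, had the largest fold of the class. It was at 5.39 FPKM (1.87 to 8.92) at 0 h, 22.7 (16.5 to 29.0) at 4 h and 12.5 (6.60 to 18.4) at 12 h, with log2 folds of 1.89 and -0.81. The 4 h interval lay above that at 0 h, and the 12 h interval overlapped both. Of its 2 isoforms, the one that RefSeq lists as noncoding held 61.3%, 66.7% and 47.5% of the level. Cd14, the lipopolysaccharide co-receptor, was at 1.13 FPKM (0.384 to 1.87), 4.31 (2.81 to 5.82) and 2.41 (1.31 to 3.51), again with only the 4 h interval above that at 0 h. Its log2 fold was 1.32 from 0 to 4 h.

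Several further macrophage genes were highest at 4 h without reaching the rule. Spi1, which encodes the myeloid transcription factor PU.1, was at 0.931 FPKM (0.166 to 1.70), 2.81 (1.48 to 4.14) and 1.06 (0.245 to 1.88), just under the threshold with a log2 fold of 0.98. Tyrobp, a signalling adaptor of myeloid receptors, was at 9.94 FPKM (5.52 to 14.4), 19.4 (13.0 to 25.8) and 13.6 (8.37 to 18.7). Mrc1, the mannose receptor of resident macrophages, was at 1.48 FPKM (1.01 to 1.95), 3.40 (2.57 to 4.24) and 2.55 (1.91 to 3.20). Adgre1, the F4/80 antigen, was at 1.45 FPKM (0.861 to 2.04), 3.02 (2.15 to 3.90) and 1.69 (1.05 to 2.33). For Mrc1 and Adgre1 the 4 h interval lay above that at 0 h, and for Spi1 and Tyrobp the intervals overlapped.

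The intervals of 4 further macrophage genes overlapped in every comparison. Csf1r, the receptor of the growth factor that macrophages depend on, was at 2.67 FPKM (1.92 to 3.42), 2.46 (1.74 to 3.17) and 2.62 (1.88 to 3.37), with log2 folds of -0.09 and 0.07. Aif1, the actin-binding protein IBA1, was at 1.79 FPKM (0.416 to 3.17), 2.13 (0.666 to 3.59) and 1.66 (0.375 to 2.95). Fcer1g, the signalling chain shared by Fc receptors, was at 11.1 FPKM (6.85 to 15.3), 13.1 (8.46 to 17.7) and 6.60 (3.39 to 9.82), the lowest value being at 12 h. Itgam, the CD11b integrin chain of macrophages and neutrophils, was at 0.451 FPKM (0.132 to 0.778), 1.01 (0.520 to 1.501) and 1.01 (0.517 to 1.51). Itgam was thus lowest at 0 h and Csf1r and Aif1 were close in all 3 libraries. Defining macrophage genes thus did not share 1 course: Cd68 and the C1q genes were past 2-fold or close to it at 4 h while Csf1r was within its interval.

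Of 16 other monocyte and macrophage genes, 8 reached 1 FPKM at 0 or 4 h. Of these 8, 4 were higher at 4 h and 0 lower, beside 10.2% and 7.03% of all genes. Clec7a and Msr1, among the 8 but not called, passed the floor only through the 4 h library. Their positive sign followed from that floor, which also bears on the median. The median log2 fold of the 8 was 0.85. The highest was the lysosomal protease Lgmn at 43.1 FPKM (38.9 to 47.3), 153 (145 to 161) and 119.9 (113 to 127), above every member at 4 and 12 h and below Lyz2 at 0 h. The lysosomal protease Ctss was at 5.07, 12.5 and 12.4 FPKM, and the hyaluronan receptor Lyve1, shared with lymphatic vessels, at 1.59, 12.0 and 1.82. Mertk, a receptor for dying cells, was at 7.61, 5.60 and 10.5 FPKM. Lyve1 was high only in the 4 h library, and Lgmn and Ctss in both later libraries. The monocyte genes Ccr2 and Ly6c2 stayed below 1 FPKM, at no more than 0.535 and 0.284 FPKM.

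The 7 genes shared by most leukocytes summed to 14.5 FPKM (10.9 to 18.2) at 0 h, 30.2 (24.4 to 35.996) at 4 h and 31.5 (24.6 to 38.5) at 12 h. Cd52 was the highest of them in each library. It held 4.01 of the 14.5 FPKM at 0 h, 11.2 of the 30.2 at 4 h and 17.5 of the 31.5 at 12 h. This small glycosylated surface peptide of lymphocytes and monocytes was at 4.01 FPKM (0.920 to 7.10), 11.2 (6.06 to 16.3) and 17.5 (10.97 to 24.1), the highest level being at 12 h. Its log2 fold was 1.28 from 0 to 4 h and 1.89 from 0 to 12 h, and only the 12 h interval lay above that at 0 h. Cd53, a tetraspanin of leukocytes, was at 0.631 FPKM (0.214 to 1.05), 3.18 (2.22 to 4.15) and 2.08 (1.32 to 2.84), with both later intervals above the first. Laptm5, a lysosomal protein of blood cells, was at 3.22 FPKM (2.16 to 4.28), 6.92 (5.19 to 8.65) and 5.99 (4.50 to 7.48), also above the first interval at both times but under the rule (log2 folds 0.91 and 0.73).

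The other 4 shared genes were under the rule or too low for it. Ptprc, which encodes CD45, the surface phosphatase that defines leukocytes, was at 0.489 FPKM (0.142 to 0.901), 0.489 (0.226 to 0.766) and 0.521 (0.128 to 1.30). Itgb2, the beta chain of the leukocyte integrins, was at 1.46 FPKM (0.834 to 2.09), 1.51 (0.874 to 2.15) and 1.55 (0.898 to 2.21). Lcp1, the actin bundler L-plastin, was at 2.34 FPKM (1.49 to 3.20), 3.47 (2.41 to 4.52) and 2.40 (1.67 to 3.13). Coro1a, an actin regulator of leukocytes, was at 2.38 FPKM (1.33 to 3.47), 3.45 (2.14 to 4.78) and 1.48 (0.637 to 2.34). Ptprc and Itgb2 were level across the 3 libraries, and Lcp1 and Coro1a were highest at 4 h with overlapping intervals. For Coro1a the isoform assigned differed between libraries: one isoform held 99.98% of the level at 0 h, and the other held 99.99% at 4 h and 99.98% at 12 h.

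The 4 genes of MHC class II antigen presentation stayed within 2-fold. They summed to 21.2 FPKM (17.2 to 25.3), 24.8 (20.5 to 29.2) and 30.9 (25.0 to 36.8) at 0, 4 and 12 h, and none was past the rule in any comparison. Cd74, the invariant chain that escorts class II molecules, was at 9.17 FPKM (6.36 to 12.1), 9.54 (6.84 to 12.3) and 13.0 (8.35 to 17.7). H2-Aa, the alpha chain of the I-A molecule, was at 3.64 FPKM (1.91 to 5.37), 6.74 (4.35 to 9.13) and 6.54 (4.19 to 8.90). Its partner H2-Ab1 was at 4.64 FPKM (2.80 to 6.47), 5.41 (3.40 to 7.42) and 6.35 (4.13 to 8.57). H2-Eb1, the beta chain of the I-E molecule, was at 3.73 FPKM (2.36 to 5.10), 3.15 (1.91 to 4.39) and 4.98 (3.38 to 6.58). All intervals overlapped within each gene. Cd74, H2-Ab1 and H2-Eb1 were highest at 12 h, and H2-Aa at 4 h.

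The promoters of H2-Aa and H2-Eb1, both on chromosome 17, are shown because both genes belong to 1 class and share a known element. The Y box, letters CTGATTGG, is part of the control region of class II genes and was searched on both strands. It was found in 2 of the 26 members with an entry in the RefSeq promoter table (GRCm38.p6), these 2, and in 4.10% of all 32851 promoters, each from 250 bases before to 50 after a gene's start. It begins 51 bases before the start of H2-Aa and 62 bases before that of H2-Eb1. The stretches are chr17:34287824-34287923, minus strand, and chr17:34305759-34305858, plus strand, with the Y box in capitals.
H2-Aa: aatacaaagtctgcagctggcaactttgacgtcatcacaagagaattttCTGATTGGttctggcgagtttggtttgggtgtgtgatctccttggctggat
H2-Eb1: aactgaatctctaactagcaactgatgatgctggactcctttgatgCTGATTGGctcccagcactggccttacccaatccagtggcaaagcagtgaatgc

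The letters GAGGAAGT, a form of the site bound by PU.1, were searched in the same way, because Spi1 is itself a member. They were found in 3 of the 26 members with an entry, S100a8, C1qc and Cd53, and in 3.20% of all promoters. No member held both these letters and the Y box. S100a8 and C1qc, both called higher at 4 h, are printed from chr3:90668853-90668952, plus strand, and chr4:136893056-136893155, minus strand. The match lies on the reverse strand in both, 172 and 195 bases before the start, so the capitals show the reverse complement of the letters. A match describes the letters only.
S100a8: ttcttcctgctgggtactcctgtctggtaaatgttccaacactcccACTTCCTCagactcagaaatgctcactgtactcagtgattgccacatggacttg
C1qc: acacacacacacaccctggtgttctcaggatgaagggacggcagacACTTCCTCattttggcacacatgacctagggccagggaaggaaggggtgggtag

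Lymphocyte genes were at or near 0 in every library. Cd3e, a chain of the T cell receptor complex, was at 0.0616 FPKM (0 to 0.306) at 0 h and listed at 0 at 4 and 12 h. Cd8a, the co-receptor of cytotoxic T cells, was listed at 0 throughout. Cd79a, the signalling chain of the B cell receptor, was at 0.400 FPKM (0 to 0.966), 0.520 (0 to 1.19) and 0.0756 (0 to 0.342). The lower bound of each was 0, so at this depth their levels could not be told from 0.

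Between 4 and 12 h the only members called were the calprotectin genes. Of 29 members with at least 1 FPKM, 0 were higher and 2 lower at 12 h, beside 4.83% of all genes higher and 7.88% lower. The members' share was thus near that of all genes. The 2 were S100a8 and S100a9, while Camp, Ltf and Lcn2 of the same class were within 2-fold. Their intervals lay apart, those of the other members did not, and those of 35% of all genes did. The other 27 were under the rule, with log2 folds from -0.89 for Fcer1g to 0.60 for Cd52. Among them Spi1 (ratio 0.379) and Coro1a (0.428) differed by more than 2-fold in FPKM but not on the FPKM + 1 scale. The median of the 29 was -0.31, beside 0.01 over all genes. Of the 29, S100a8, S100a9 and Ltf passed the floor only through the 4 h library, so their negative sign followed from the floor. With libraries rescaled to an equal sum, which shifted the median of all genes by 0.36, the counts were again 0 higher and 2 lower, beside 12.6% of all genes higher and 5.23% lower.

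From 0 to 12 h, 5 of the 27 members with at least 1 FPKM were higher and 0 lower, beside 3.16% of all genes higher and 2.55% lower. These were Cd52 (log2 fold 1.89), C1qc (1.25), Cd68 (1.08), C1qa (on the threshold) and Camp, listed at 0 before hCG. For Cd68 the intervals overlapped. Intervals lay apart in 8 of the 27 members and in 17.1% of all genes. The 8 include Camp, whose 0 h bounds were both 0. Of the 27, Cd53, Itgam, Spi1 and Camp passed the floor only through the 12 h library. Their positive sign followed from that floor, which also bears on the call of Camp and on the intervals of Cd53 and Camp. S100a8 passed it only through the 0 h library, so its negative sign followed from it. This comparison shares its 0 h library with that of 4 h, and so the levels given above are the same values. Among the 29 members with at least 1 FPKM in any library, 19 were highest at 4 h, 9 at 12 h and 1 at 0 h; over all genes 40.3% were highest at 4 h. With libraries rescaled to an equal sum 13 members were highest at 4 h, 14 at 12 h and 2 at 0 h. On that scale 21.0% of all genes were highest at 4 h. Rescaled to the protein-coding sum, 16 members were highest at 4 h, 13 at 12 h and 0 at 0 h, beside 25.9% of all genes at 4 h. The time of the highest level of many members thus depended on the scale.

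**Figure D3:**
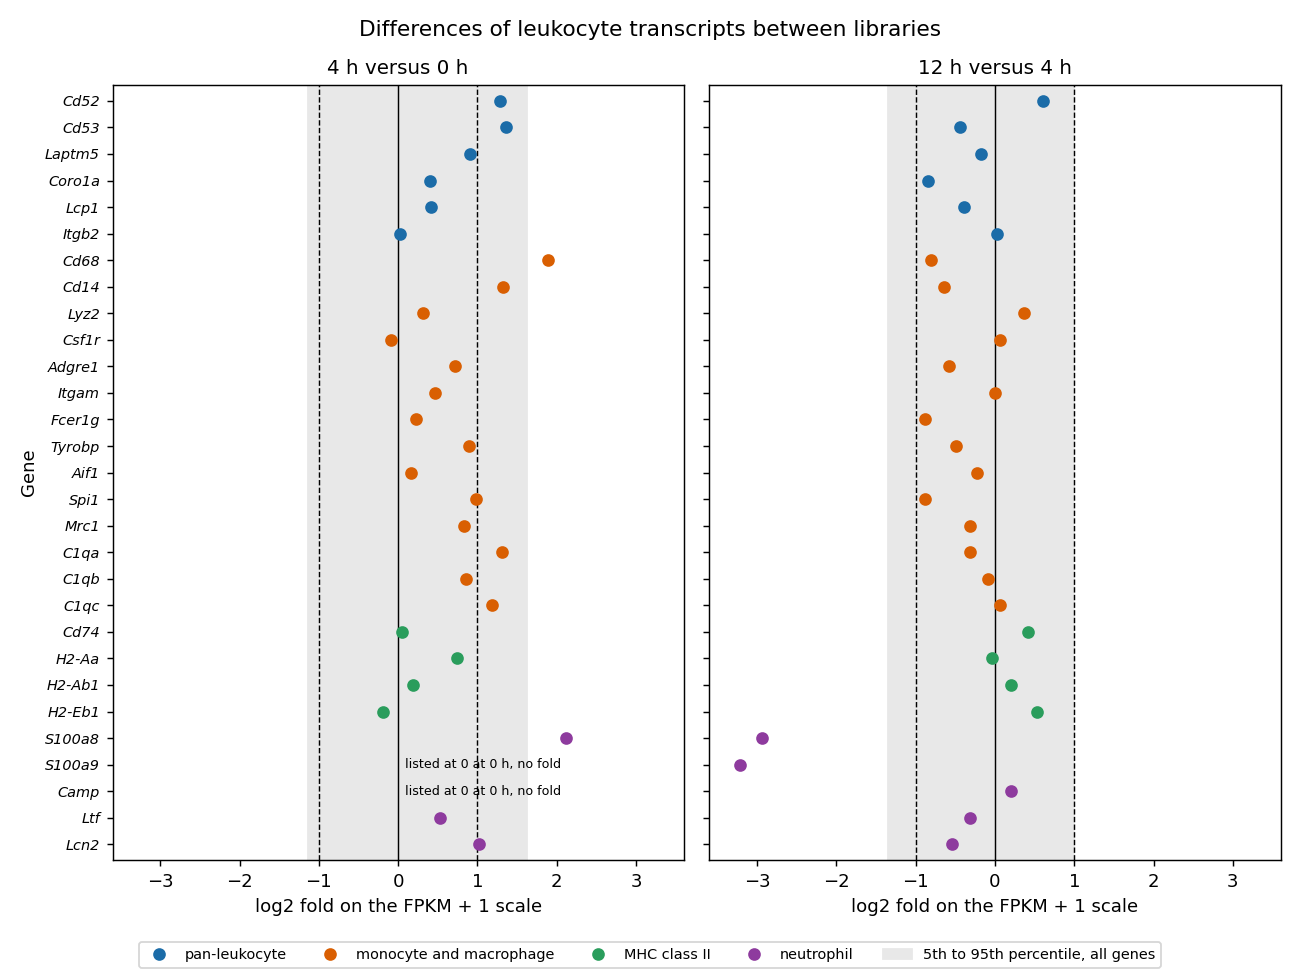
Log2 folds on the FPKM + 1 scale (x axis) of the 29 members with at least 1 FPKM in 1 library of each comparison (y axis, coloured by class), for 4 h versus 0 h and 12 h versus 4 h; the grey band spans the 5th to 95th percentile of all genes and dashed lines mark a fold of 2. S100a8 and S100a9 lie left of the band at 12 h versus 4 h (-2.94 and -3.22), and S100a8 (2.12) and Cd68 (1.89) lie right of it at 4 h versus 0 h, where S100a9 and Camp, called higher but listed at 0 at 0 h, have no fold drawn.

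Genes that draw or hold leukocytes were counted from lists outside the members. Of 16 chemoattractants and leukocyte growth factors, 12 reached 1 FPKM at 0 or 4 h, of which 4 were higher at 4 h and 0 lower. Over all genes 10.2% were higher and 7.03% lower. The median log2 fold of the 12 was 0.70, and 0.51 without Il6, listed at 0 before hCG. The fold was positive in 9 of the 12, the exceptions being Cxcl10, Ccl2 and Ccl3. The genes called were Cx3cl1, Cxcl5, Ccl7 and Il6. Of the 12, Cxcl5, Ccl7, Il6 and Ccl4 passed the floor only through the 4 h library. Their positive sign followed from that floor, which also bears on the median and on the calls of Cxcl5, Ccl7 and Il6. Cxcl10 and Ccl3 passed it only through the 0 h library, so their negative sign followed from it. The 4 with the highest levels were the fractalkine gene Cx3cl1 (9.43, 28.8 and 11.3 FPKM), the neutrophil attractant Cxcl1 (8.23, 16.1 and 9.93), the CXCR4 ligand Cxcl12 (4.33, 9.45 and 7.12) and the macrophage growth factor Csf1 (4.16, 4.76 and 2.92). All 4 were highest at 4 h, but only Cx3cl1 was past the rule. The log2 folds of Cxcl1, Cxcl12 and Csf1 from 0 to 4 h were 0.89, 0.97 and 0.16. The Csf1 interval at 4 h (3.32 to 6.21) overlapped that at 0 h (2.72 to 5.98). Of the 12 in the list with at least 1 FPKM in any library, 8 were highest at 4 h, 2 at 0 h and 2 at 12 h. Csf3, the ligand of Csf3r, did not exceed 0.144 FPKM. From 4 to 12 h, 2 of 11 in the list were lower and none higher, beside 7.88% of all genes lower and 4.83% higher. The 2 were Cx3cl1 and Ccl7. In that comparison Ccl7, Cxcl5 and Ccl4 passed the floor only through the 4 h library, so their negative sign followed from it. Ccl3 passed it only through the 12 h library, so its positive sign did too.

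Of 9 genes by which leukocytes adhere to vessels, 3 reached 1 FPKM, and 2 of these were higher at 4 h, beside 10.2% of all genes. Icam1, the ligand of leukocyte integrins, was at 0.483 FPKM (0.0870 to 0.878), 5.84 (4.41 to 7.27) and 2.54 (1.64 to 3.43). From 0 to 4 h it passed the floor only through the 4 h library, so its positive sign followed from that floor, which also bears on its call. Icam2, a related ligand of endothelium, was at 1.52 FPKM (0.422 to 2.62), 5.89 (3.74 to 8.04) and 2.11 (0.853 to 3.36). Vcam1, at 7.83 FPKM (6.10 to 9.55), 9.98 (7.92 to 12.0) and 2.24 (1.51 to 2.97), was lower at 12 h than at both earlier times. The selectin Sele stayed under 1 FPKM, at 0.166, 0.989 and 0.0635. Icam1, Icam2 and Sele were thus highest in the 4 h library, as the endothelial markers were.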

How the data were processed

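Granulosa cell RNA of 3 mice per time was sequenced as 1 library per time, per the labels' protocols. The authors deposited FPKM per RefSeq isoform with a lower and an upper bound, and CASAVA 1.8, TopHat2 2.1.1, Cufflinks 2.2.1 and mm10 appear in the submitters' processing notes with no role given; read length and strandedness are not given in the sources used here. Upper bounds lie exactly 2 of the deposited standard deviations above the FPKM.

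Of 34535 isoforms, 34169 were matched to symbols through RefSeq (GRCm38.p6, the assembly mm10 names), 193 through GENCODE, while 173 had no symbol and were dropped. Gene FPKM are sums over isoforms (24225 genes), with half-widths of the bounds added in quadrature. Of 12 failed estimates none was a member's. Depth was read from the spacing of low values of genes with 1 isoform, of which 70.2% to 71.8% lay within 0.1 of a whole fragment. Calls used a pseudocount of 1 FPKM, a floor of 1 FPKM and a fold of 2, and steps were tested on simulated libraries. No p-value was computed. Python 3.11.15, pandas 2.3.3 and numpy 2.4.6 were used.

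Members and gene lists were chosen with earlier results of these data known. All members are named, and of other lists up to 4 genes with the highest level are named. Fshr, Cyp19a1, Foxl2, Elane, Ctsg, Mpo, Ccr2, Ly6c2, Marco, Clec7a and Msr1 were added after their values were seen. The same holds for Csf3, Il6, Cxcl5, Cxcl10, Ccl2, Ccl3, Ccl4, Ccl7, Cd3d, Cd3g, Flt3 and Cpa3. Ly6g had no matched transcript. Protein sequences were not used here. Alternatives were pseudocounts of 0.1 and 5 FPKM, no floor or 5 FPKM, 3 rescalings, the main isoform, folds of 1.5 and 4, and intervals that lie apart.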

Additional observations from a re-analysis of the deposited data

How the results depend on the processing

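The number of members higher at 4 h than at 0 h, 10 by the rule used, was 4 with a pseudocount of 5 FPKM (5.9% of all genes), 6 with a floor of 5 FPKM (10.3%), 17 at a fold of 1.5 (19.1%) and 2 at a fold of 4 (3.56%). It was 15 with a pseudocount of 0.1 FPKM (13% of all genes) and 11 by the main isoform (11.6%). It was 7 when deposited intervals also had to lie apart (9.04%), which dropped Cd52, S100a8 and Lcn2. Members lower at 12 h than at 4 h numbered 4 with a pseudocount of 0.1 FPKM (10.3% of all genes) and 7 at a fold of 1.5 (16%), against 2, and 1 was higher at a fold of 1.5 (16.2%), against 0. Members higher at 12 h than at 0 h, 5 by the rule, numbered 8 with a pseudocount of 0.1 FPKM (5.6% of all genes), 1 with a pseudocount of 5 FPKM (1.27%), 11 at a fold of 1.5 (8.79%) and 0 at a fold of 4 (0.737%). In that comparison 1 member was lower with a pseudocount of 0.1 FPKM (4.02%) and 2 at a fold of 1.5 (6.7%), against 0. These follow from how strict each rule is. The monocyte and macrophage sum at 4 h was 159.5 FPKM on libraries rescaled to the sum of all genes and 166 on the protein-coding sum, against 186, and at 12 h 191 on the former, against 169.6. No fold of a called member changed sign under the rescalings or with the main isoform. The other alternatives could not change a sign, and S100a9 and Camp, listed at 0 at 0 h, have no fold against that library. No paired analysis was possible because each time has 1 library, and for the same reason no replicate could be left out. Depth limits the low members, S100a8 and Camp among them, whose intervals at 4 h have the width of 10.7 and 5.25 fragments.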

Other observations

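Of 13 other T, NK and B cell genes, 3 reached 1 FPKM in any library: the granzymes Gzma (1.55, 2.23 and 0.126 FPKM at 0, 4 and 12 h) and Gzmb (0.0627, 0.894 and 1.77), and the B cell gene Ms4a1 (0.606, 0.224 and 1.11). Gzma was lowest at 12 h, where Gzmb was highest, and the T cell genes Cd3d and Cd3g did not exceed 0.149 and 0.302 FPKM. Of 10 mast cell and eosinophil genes none reached 1 FPKM, and the mast cell protease Cpa3 was listed at 0 throughout. Among 6 dendritic cell genes Zbtb46, a transcription factor also made by endothelium, was at 1.49 FPKM (0.576 to 2.56), 6.12 (4.47 to 7.77) and 4.38 (2.93 to 5.84). Clec9a, a receptor of cross-presenting dendritic cells, was at 1.47, 0.883 and 1.51, lowest where Zbtb46 was highest, and Flt3 was listed at 0 throughout.

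Of 5 markers, 2 genes of blood platelets and megakaryocytes were above 1 FPKM. Pf4 was at 1.96 FPKM (0 to 4.12), 3.93 (1.24 to 6.62) and 6.03 (2.73 to 9.32), and Itga2b at 1.53, 2.05 and 1.04. The scavenger receptor Marco, of some macrophages, was at 0 FPKM at 0 h, 0.565 (0.0802 to 1.05) at 4 h and 1.64 (0.839 to 2.44) at 12 h, while Cd68 was highest at 4 h.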
